A study of Mus musculus with 6 samples.

Results

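A set of 29 genes that mark blood cell lineages other than the CD8 T cell were followed in RNA sequencing data from activated CD8 T cells of mice (6 libraries). They were chosen by name, as textbook markers of B cells, gamma-delta T cells, CD4 and regulatory T cells, neutrophils, monocytes and dendritic cells, mast cells and basophils, red cells, platelets and natural killer (NK) cells. The choice was made with earlier results of these data known. All 29 were found among the 54532 genes of the deposited table. The question addressed was how much RNA of these lineages each library held and whether it differed by genotype.

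The cells came from PTPMT1 KO mice (3 libraries) and from PTPMT1 WT mice (3 libraries). Ptpmt1 encodes a phosphatase of the mitochondrial inner membrane that acts in the synthesis of cardiolipin. CD8 T cells were purified from spleen and lymph nodes and stimulated in culture for 3 days with beads that carry CD3 and CD28 antibodies, in place of antigen and costimulation. Both groups carry the same treatment label, and the labels name no driver of the deletion, strain, age or sex. Since no label says that each replicate was its own animal, the p-values speak only of the spread among these libraries, some of which may be technical.

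Each lineage is known by genes that its cells transcribe at high level and that most other blood cells keep silent: antigen receptor chains in lymphocytes, granule proteases in mast cells and basophils, haemoglobin chains in red cells. CD8 T cells are sorted out of spleen and lymph node by surface markers, and a bulk library of them can hold RNA of other lineages at low level. Fewer cells of a type and less RNA per cell cannot be told apart in bulk samples.

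The mast cell and basophil genes include the transcription factor gene Gata2 and Ms4a2. Ms4a2 did not pass the test over all libraries. It was the member that passed without both replicates numbered 3, where 14.7% of all genes tested passed. The promoters of the 3 genes of this lineage that hold the GATA motif letters AGATAA or TGATAA on either strand are shown. Each is the 250 bases before the start of the gene in RefSeq (GRCm38.p6), written 5′ to 3′ on the strand of the gene. Capitals mark AGATAA or TGATAA on either strand, which are among the forms that GATA factors bind. Other forms were neither marked nor counted.
Ms4a2 (chr19:11623720-11623969, minus strand): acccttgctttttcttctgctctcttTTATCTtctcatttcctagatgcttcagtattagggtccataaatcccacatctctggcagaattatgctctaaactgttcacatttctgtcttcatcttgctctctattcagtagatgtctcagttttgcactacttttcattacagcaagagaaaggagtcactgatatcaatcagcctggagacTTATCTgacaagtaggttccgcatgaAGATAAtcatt
Cpa3 (chr3:20242182-20242431, minus strand): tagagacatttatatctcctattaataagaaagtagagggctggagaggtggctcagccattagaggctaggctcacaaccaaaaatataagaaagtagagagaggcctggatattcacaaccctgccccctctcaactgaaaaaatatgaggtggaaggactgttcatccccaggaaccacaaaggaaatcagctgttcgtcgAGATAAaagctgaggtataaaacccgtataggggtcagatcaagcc
Fcer1a (chr1:173227230-173227479, minus strand): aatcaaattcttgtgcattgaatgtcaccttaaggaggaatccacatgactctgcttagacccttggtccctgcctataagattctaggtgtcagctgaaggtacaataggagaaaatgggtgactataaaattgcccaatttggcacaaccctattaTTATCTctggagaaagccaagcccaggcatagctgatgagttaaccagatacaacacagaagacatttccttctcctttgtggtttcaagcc

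Ms4a2 held 3 matches in its window, and Cpa3 and Fcer1a held 1 each. The windows of Mcpt8 and of both Gata2 start sites held none, so that 3 of 6 windows of the mast cell and basophil genes had a match. Among other lineages, both windows of the red cell genes, both of the CD4 and regulatory T cell genes, 1 of 2 of the gamma-delta genes and 1 of 3 of the neutrophil genes had one. Both CD4 and regulatory T cell windows were of Foxp3, since Cd4 and Ikzf2 had no window. The windows of the B cell, monocyte, platelet and NK cell genes held none. Of all 32851 mouse promoter windows of this length, 16.6% had at least 1. A match describes letters only and was not related to the levels.

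The level of a gene is given as FPKM, fragments scaled to gene length and to a size set for each library. Levels of different genes can thus be set side by side. Whole reads, rebuilt from the FPKM steps, summed to between 14932604 and 16819913 per library. The scale did not follow these sums. In FPKM times gene length, 3 reads stood at 228.6 in KO replicate 2 (16819913 reads) and 166.2 in KO replicate 3 (16462539 reads). Summed FPKM ran from 357607 in KO replicate 3 to 605554 in KO replicate 2. How the size was set is not given, which limits comparisons of FPKM between libraries. Ptpmt1 itself had 1.0004, 1.58 and 1.504 FPKM in KO replicates 1, 2 and 3, against 3.75, 3.84 and 4.13 FPKM in WT replicates 1, 2 and 3, and each KO library lay below each WT library. KO replicate 3 stood apart from the other libraries. It had no read of Xist, the transcript that silences 1 X chromosome in female cells, and 1837 reads of Ddx3y, a gene of the Y chromosome, whereas the other 5 libraries had 3513 to 8614 Xist reads and no Ddx3y read. It also had the lowest share of mitochondrial reads, 2.38%, against 7.53% in KO replicate 2 and 3.38% to 4.76% in the other 4 libraries. Results that rest on it are given with and without it. The defining genes of the CD8 T cell were abundant in all 6 libraries. Cd8a, the alpha chain of the coreceptor, had 135, 109 and 145 FPKM in KO and 182, 196 and 219 FPKM in WT libraries. Cd8b1, the beta chain, had 284 to 539 FPKM in KO and 472 to 671 FPKM in WT libraries, and Cd3e, a signalling chain of the T cell receptor, had 20.4 to 31.9 and 37.7 to 42.7 FPKM.

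Reads of genes that mark other lineages were present in every library, with each member below the level of Cd8b1 in the same library. By group means of the summed FPKM, gamma-delta T cell genes were highest and NK cell genes lowest in both genotypes. The sums hold unequal numbers of genes, 5 for gamma-delta and 2 for NK cells. CD8 T cells can also transcribe some of these genes, so the order does not rank cell types. The 5 gamma-delta genes summed to 20.3, 35.6 and 117.6 FPKM in KO replicates 1, 2 and 3, against 19.7, 20.8 and 40.6 FPKM in WT replicates 1, 2 and 3. The 5 mast cell and basophil genes summed to 16.4, 18.2 and 84.4 FPKM in KO libraries, against 6.64, 7.08 and 20.0 FPKM in WT libraries. In both lineages replicate 3 was the highest library of its own group, and KO replicate 3 was the highest of all 6. Group means were 57.8 ± 52.3 FPKM in KO and 27.0 ± 11.8 FPKM in WT libraries for the gamma-delta genes, and 39.6 ± 38.7 and 11.2 ± 7.60 FPKM for the mast cell and basophil genes (SD, n = 3 each). The 3 B cell genes summed to 13.9, 13.3 and 13.9 FPKM in KO and 24.9, 18.3 and 18.2 FPKM in WT libraries. Here every KO library lay below every WT library. Most of each sum was Cd79b, with 10.7 to 13.2 FPKM in KO and 13.9 to 22.7 FPKM in WT libraries. Cd79a and Ms4a1 each overlapped between the groups. Of all genes tested, 27.8% did not overlap.

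The remaining lineages were low. The CD4 and regulatory T cell genes summed to 3.72 to 5.32 FPKM in KO and 5.28 to 7.56 FPKM in WT libraries. The 2 haemoglobin genes summed to 4.05 to 10.01 FPKM in KO and 2.45 to 6.67 FPKM in WT libraries. Neutrophil genes reached at most 2.53 FPKM in KO and 5.03 FPKM in WT libraries, monocyte genes 5.09 and 3.37 FPKM, platelet genes 4.20 and 7.002 FPKM, and NK cell genes 0.420 and 1.68 FPKM. For each of these 6 lineages the ranges of the groups overlapped.

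**Figure D1:**
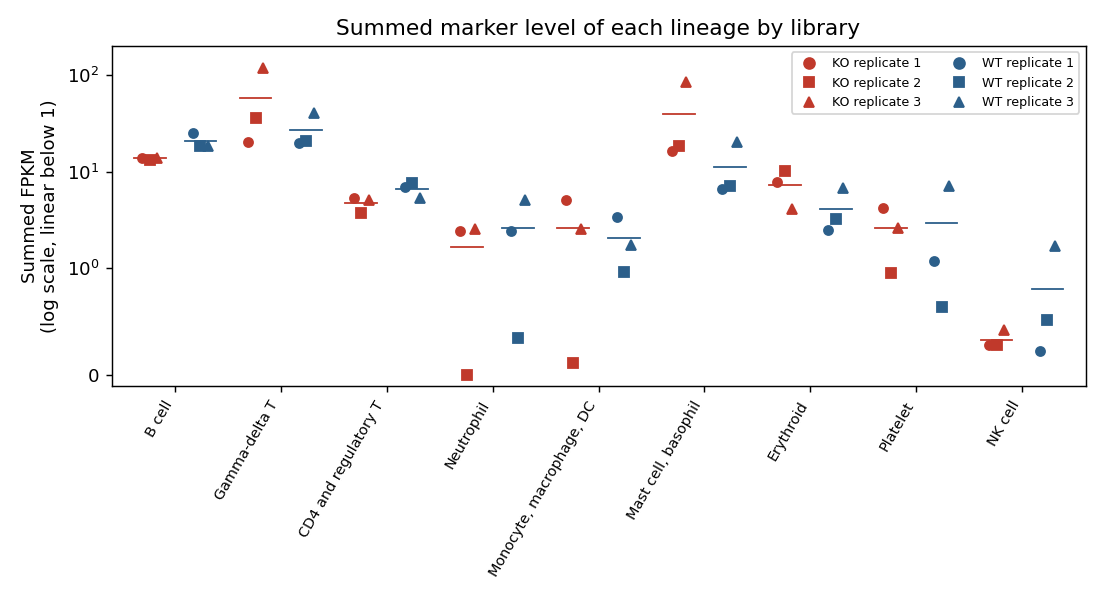
Summed FPKM of the members of each lineage (y axis, log scale, linear below 1) in KO (red) and WT (blue) libraries; horizontal lines are group means, and the marker shape gives the replicate number. Gamma-delta and mast cell and basophil sums peak in KO replicate 3 at 117.6 and 84.4 FPKM, whereas the B cell sums of the 3 KO libraries lie between 13.3 and 13.9 FPKM, below those of the WT libraries. Most of each B cell sum is Cd79b.

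Of the gamma-delta T cell members, the receptor constant genes varied most by library. Gamma-delta T cells carry a receptor of a gamma and a delta chain in place of the alpha and beta chains of CD8 T cells. Trdc (chr14:54142851-54148868), the delta chain constant gene, had 1.51, 3.79 and 22.2 FPKM in KO replicates 1, 2 and 3, against 3.92, 3.17 and 7.90 FPKM in WT replicates 1, 2 and 3. The lowest and the highest library were thus both KO. Relative to the constant gene of the alpha chain, Trac, Trdc stood at 0.00798, 0.0221 and 0.178 in KO libraries and at 0.0159, 0.0117 and 0.0324 in WT libraries. Trac itself had a mean of 162 FPKM in KO and 253 FPKM in WT libraries. Its log2 fold change was -0.66 with a limma adjusted p of 0.155. In KO replicate 3 it stood at -0.53 (log2 of FPKM + 0.5) against the mean of KO replicates 1 and 2. The ratios thus reflect both genes.

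Both gamma chain constant genes of the set lie on chromosome 13. Tcrg-C1 (chr13:19214103-19217024) had 7.77, 11.5 and 29.8 FPKM in KO libraries, against 5.09, 5.92 and 13.0 FPKM in WT libraries. Tcrg-C2 (chr13:19304649-19307551) had 8.90, 18.2 and 62.7 FPKM in KO libraries, against 9.56, 10.2 and 18.4 FPKM in WT libraries. For both genes the groups overlapped, with KO replicate 3 the highest library. Without both replicates numbered 3, the 2 KO libraries lay above the 2 WT libraries for Tcrg-C1 but not for Tcrg-C2. The share of all genes that separate in that setting was not counted. Of the 100-base windows of Tcrg-C1, 8.24% occur in another gene, mainly Tcrg-C3, so a part of its reads may be shared. CD8 T cells with an alpha-beta receptor can also transcribe gamma chain loci, which is a limit of these genes as markers.

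Cd163l1 (chr7:140218267-140231145), a scavenger receptor known in mice from gamma-delta T cells that make interleukin 17, showed a different pattern. It had 2.095, 2.12 and 2.78 FPKM in KO libraries, against 1.09, 1.505 and 1.18 FPKM in WT libraries. The groups did not overlap. The KO libraries had the same order as for Trdc but lay within a narrower range. Its log2 fold change was 0.68 ± 0.21 (KO minus WT, SE, n = 3 each) with a limma adjusted p of 0.146, and the exact permutation p was 0.1, the smallest that 3 against 3 samples allow. Il17a, the cytokine of that subset, had 1, 0 and 2 reads in KO and 0, 0 and 1 reads in WT libraries, too few to compare.

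The other 3 gamma-delta members did not pass the test either. Log2 fold changes, which are on the log2(FPKM + 0.5) scale throughout and understate changes of low genes, were 0.88 ± 0.53 for Tcrg-C1, 0.82 ± 0.66 for Tcrg-C2 and 0.18 ± 0.84 for Trdc (SE, n = 3 each), with limma adjusted p of 0.373, 0.503 and 0.919. Without KO replicate 3 they were 0.35, 0.06 and -0.81, and Trdc also turned to -0.051 when libraries were scaled to equal summed FPKM. The difference of the group means of the lineage sum was 30.8 FPKM over all 6 libraries and 0.97 FPKM without KO replicate 3.

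A wider list of 16 gamma-delta genes was described in the same way. Of its 16 genes, 10 were highest in KO replicate 3 and 5 in WT replicate 3, against 20.8% and 13.8% of all genes detected. Of the 7 that were tested, 0 were called by limma, against 0.0395% of all genes tested. At an unadjusted limma p under 0.05 there were 0, against 11.5% of all genes tested higher and 10.2% lower in KO. The median log2 fold change of those 7 was 0.55, against 0.03 for all genes tested. Its 3 most abundant genes were Tcrg-C4, a further constant gene, with 9.22, 30.7 and 59.1 FPKM in KO and 10.9, 7.07 and 13.2 FPKM in WT libraries, and the variable genes Tcrg-V1 and Tcrg-V4. Tcrg-V1 had 5.27, 14.3 and 32.9 FPKM in KO and 4.90, 4.53 and 11.4 FPKM in WT libraries. Tcrg-V4 had 3.58, 1.07 and 13.9 FPKM in KO and 2.44, 2.60 and 3.21 FPKM in WT libraries. In KO replicate 2, Tcrg-C4 and Tcrg-V1 were above every WT library while Tcrg-V4 was below every WT library, so the gamma genes did not keep the same order between libraries.

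**Figure D2:**
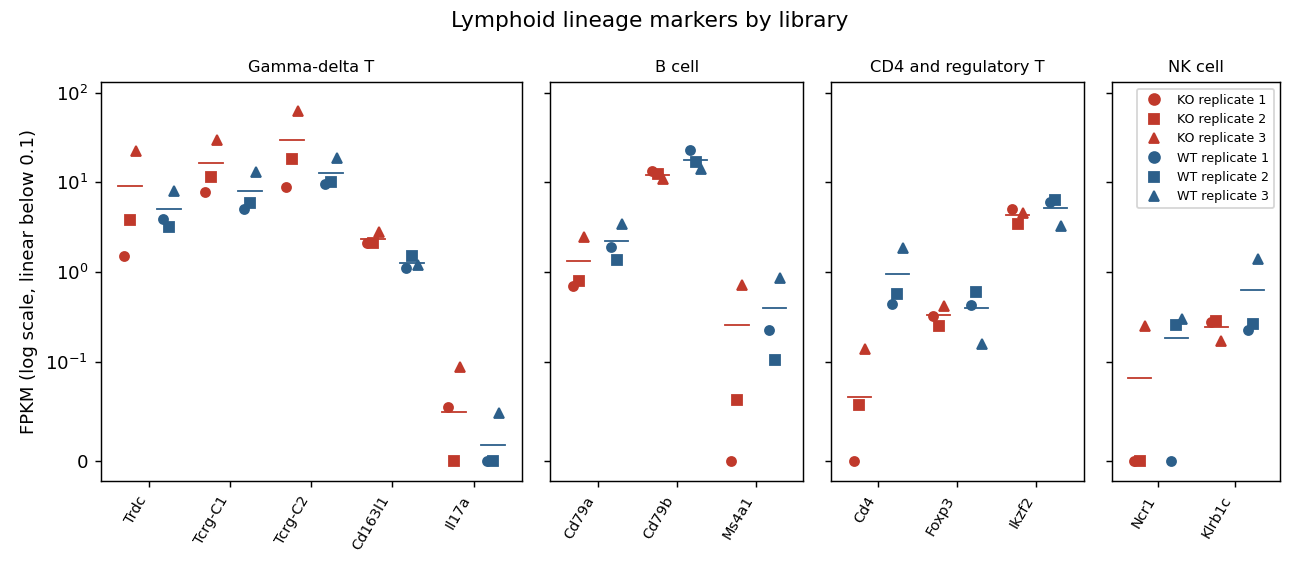
FPKM of the lymphoid members (y axis, log scale, linear below 0.1) in KO (red) and WT (blue) libraries, with a panel for each lineage; lines are group means, and marker shapes give the replicate number. Trdc, Tcrg-C1 and Tcrg-C2 are highest in KO replicate 3 (22.2, 29.8 and 62.7 FPKM), whereas Cd79b and Cd4 lie lower in all KO than in all WT libraries.

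Of the 3 B cell members, Cd79b was the most abundant. Cd79a and Cd79b encode the signalling chains of the B cell receptor, and Ms4a1 encodes CD20. Cd79b (chr11:106311341-106314762) had 13.2, 12.5 and 10.7 FPKM in KO libraries, against 22.7, 16.9 and 13.9 FPKM in WT libraries. All KO libraries lay below all WT libraries, and replicate 3 was the lowest of each group. Its log2 fold change was -0.52 ± 0.21 (SE, n = 3 each), the limma adjusted p was 0.217 and the exact permutation p was 0.1.

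Cd79a, the partner chain, had 0.698, 0.784 and 2.47 FPKM in KO libraries, against 1.89, 1.34 and 3.40 FPKM in WT libraries. The groups overlapped, and here replicate 3 was the highest of each group. Ms4a1 had 0, 5 and 79 reads in KO and 23, 10 and 94 reads in WT libraries, again with replicate 3 far above the others of each group. The 2 receptor chains were therefore not in 1 ratio: Cd79b stood at 18.9, 15.9 and 4.34 times Cd79a in KO libraries and at 12.1, 12.6 and 4.10 times in WT libraries. Without both replicates 3, the KO libraries lay below the WT libraries for Cd79a, Cd79b and Ms4a1 alike. The share of all genes that separate with 2 libraries in each group was not counted. The order of these genes in that setting is therefore a description only. The log2 fold change of Cd79a was -0.64 ± 0.44 (SE, n = 3 each) with a limma adjusted p of 0.431.

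The wider B cell list of 17 genes was led by 2 immunoglobulin constant genes and Cd37. Ighm, the mu heavy chain, had 318, 253 and 243 FPKM in KO and 383, 387 and 299 FPKM in WT libraries, above Cd8a in every library. The source of the Ighm reads was not tested. Igkc, the kappa light chain, had 3.70, 9.74 and 162 FPKM in KO and 11.1, 13.7 and 53.5 FPKM in WT libraries. For Ighm, KO replicate 1 lay above WT replicate 3 and the other KO libraries below all WT libraries, while Igkc was highest in KO replicate 3. The ratio of Igkc to Ighm was 0.0116, 0.0385 and 0.667 in KO and 0.0291, 0.0354 and 0.179 in WT libraries, with both replicates 3 above the other libraries. Cd37, a tetraspanin that T cells also express, had 20.3, 14.0 and 23.9 FPKM in KO and 27.6, 32.9 and 29.2 FPKM in WT libraries, with no overlap and a limma adjusted p of 0.169. None of the 7 tested genes of the wider list was called at an adjusted p under 0.05; at an unadjusted p under 0.05, 0 were higher and 2 lower in KO, against 11.5% of all genes tested higher and 10.2% lower.

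Of the 3 CD4 and regulatory T cell members, Cd4 differed most between the groups. Cd4 (chr6:124864692-124888221), the coreceptor of helper T cells, had 0, 3 and 10 reads in KO libraries, against 29, 35 and 132 reads in WT libraries. These correspond to 0, 0.0567 and 0.137 FPKM in KO and 0.439, 0.565 and 1.86 FPKM in WT libraries. No read in KO replicate 1 allows up to 0.0473 FPKM, at a floor of 3 reads that covers counting error only. The groups did not overlap, and replicate 3 was the highest of each. The log2 fold change was -1.25 ± 0.43 (SE, n = 3 each), with a limma adjusted p of 0.169 and an exact permutation p of 0.1. Cd4 reached the mean of 0.5 FPKM required for limma, at 0.510 FPKM, only through the WT libraries. Its group means were 0.0647 FPKM in KO and 0.956 FPKM in WT libraries. The filter thus favoured a difference, and the limma result for Cd4 is a description.

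The other 2 members of this group did not separate the genotypes. Foxp3, the transcription factor that defines regulatory T cells, had 20, 13 and 30 reads in KO and 28, 37 and 11 reads in WT libraries. Ikzf2, which encodes Helios and is also transcribed in activated CD8 T cells, had 4.9998, 3.42 and 4.49 FPKM in KO and 6.02, 6.39 and 3.26 FPKM in WT libraries. For both genes WT replicate 3 was the lowest of the 6 libraries, whereas for Cd4 it was the highest. The log2 fold change of Ikzf2 was -0.22 ± 0.28 (SE, n = 3 each) with a limma adjusted p of 0.681.

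In the wider list of 11 CD4 and regulatory T cell genes, 0 of 7 tested genes were called, and at an unadjusted p under 0.05, 2 were higher and 0 lower in KO, against 11.5% and 10.2% of all genes tested. Its most abundant genes, the checkpoint receptor Ctla4, Tnfrsf18 (GITR) and the folate receptor gene Izumo1r, include genes that activated CD8 T cells make themselves. Tnfrsf18 had 47.7, 53.4 and 72.1 FPKM in KO and 35.1, 30.2 and 37.6 FPKM in WT libraries, without overlap, with a log2 fold change of 0.73 and a limma adjusted p of 0.130. Zbtb7b was the second gene higher in KO at that unadjusted p. It had 2.02, 1.62 and 5.44 FPKM in KO and 0.655, 1.22 and 1.20 FPKM in WT libraries, without overlap. Its log2 fold change was 1.08 with a limma adjusted p of 0.199, opposite in direction to Cd4. Ctla4 had 37.1 to 169 FPKM in KO and 103 to 185 FPKM in WT libraries, and Izumo1r 10.2 to 12.1 and 11.6 to 15.1 FPKM. Those ranges overlapped.

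NK receptor genes were read at very low level. Ncr1, the activating receptor NKp46, had 0, 0 and 7 reads in KO and 0, 6 and 8 reads in WT libraries. Klrb1c, which encodes NK1.1 in some strains, had 13, 11 and 9 reads in KO and 11, 12 and 72 reads in WT libraries. The groups overlapped for both, and WT replicate 3 was the highest library for both. Of the 100-base windows of Klrb1c, 12.6% occur in another gene. In the wider NK list, Gzma, a granzyme that cytotoxic T cells also make, had 66.4, 54.2 and 88.8 FPKM in KO and 47.6, 38.6 and 251 FPKM in WT libraries. Klre1, an NK receptor gene, had 0.872 to 8.72 FPKM in KO and 1.45 to 2.92 FPKM in WT libraries, and Fcer1g, a signalling adaptor, 0.727 to 5.14 and 1.49 to 3.78 FPKM. None of the 6 tested genes of that list of 11 was called, against 0.0395% of all genes tested. At an unadjusted limma p under 0.05 there were 0 in either direction, against 11.5% of all genes tested higher and 10.2% lower in KO.

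All 5 mast cell and basophil genes had a log2 fold change above 0 over the 6 libraries, and none passed the test; without KO replicate 3, this held for 4 of the 5. Mast cells and basophils bind immunoglobulin E through the receptor that Fcer1a and Ms4a2 encode, and they store proteases such as those of Cpa3 and Mcpt8 in granules. Mcpt8 (chr14:56082166-56085273), a basophil protease, had 5.73, 3.13 and 43.3 FPKM in KO libraries, against 1.35, 2.35 and 5.82 FPKM in WT libraries. Cpa3 (chr3:20215620-20242181), carboxypeptidase A3, had 5.74, 7.08 and 25.9 FPKM in KO libraries, against 4.03, 3.05 and 6.64 FPKM in WT libraries. For both proteases KO replicate 3 was far above all other libraries, and WT replicate 3 was the highest WT library and overlapped the KO range. Mcpt8 stood at 0.999, 0.442 and 1.67 times Cpa3 in KO libraries and at 0.334, 0.771 and 0.876 times in WT libraries, so the proteases did not keep 1 ratio.

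Ms4a2 (chr19:11615523-11623719), the beta chain of the immunoglobulin E receptor, separated the groups. It had 1.63, 1.65 and 5.91 FPKM in KO libraries, against 0.413, 0.486 and 0.850 FPKM in WT libraries, from 72, 61 and 300 reads in KO and 19, 21 and 42 reads in WT libraries. Every KO library lay above every WT library. The log2 fold change was 1.53 ± 0.46 (SE, n = 3 each), with a limma adjusted p of 0.143 and an exact permutation p of 0.1. Without both replicates 3 it was 1.17 with a limma adjusted p of 0.0393, past the threshold, and without KO replicate 3 alone it was 1.003 with an adjusted p of 0.0606. Of all genes tested, 14.7% and 13.7% were called in these settings.

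Fcer1a, the alpha chain of the same receptor, had 2.93, 6.18 and 5.44 FPKM in KO libraries, against 0.673, 1.11 and 5.53 FPKM in WT libraries. WT replicate 3 lay within the KO range, and the other 2 WT libraries lay below it. The highest KO library was replicate 2. Ms4a2 stood at 0.555, 0.267 and 1.09 times Fcer1a in KO libraries and at 0.613, 0.438 and 0.154 times in WT libraries, so the receptor chains did not move in 1 ratio either. Gata2, a transcription factor of mast cells, basophils and blood progenitors, had 0.341, 0.169 and 3.89 FPKM in KO libraries, against 0.181, 0.0844 and 1.17 FPKM in WT libraries. Both replicates 3 were above the other 4 libraries, and the remaining KO and WT libraries overlapped.

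Over all libraries neither Ms4a2 nor any of the other 4 genes passed the test. Without both replicates 3 Ms4a2 alone passed, in a setting that called 14.7% of all genes tested. Log2 fold changes were 1.63 ± 0.92 for Mcpt8, 1.15 ± 0.56 for Cpa3, 1.19 ± 0.61 for Fcer1a and 0.63 ± 0.78 for Gata2 (SE, n = 3 each), with limma adjusted p of 0.343, 0.279, 0.301 and 0.673. Without both replicates 3 they were 1.05, 0.78, 1.80 and 0.25, with limma adjusted p of 0.115, 0.0679, 0.0510 and 0.575. Without KO replicate 3 alone they were 0.56 for Mcpt8, 0.50 for Cpa3, 1.09 for Fcer1a and -0.22 for Gata2, with limma adjusted p of 0.489, 0.296, 0.326 and 0.797, against 1.51 for the red cell gene Hbb-bs. The difference of the group means of the lineage sum was 28.4 FPKM over all libraries and 6.04 FPKM without KO replicate 3, and 10.4 FPKM without both replicates 3.

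Among 15 further mast cell and basophil genes, the mast cell protease genes Mcpt2, Mcpt4 and Tpsab1 had no read in any library, but other mast cell protease genes did. Cma1, a chymase, had 1, 0 and 28 reads in KO and 1, 8 and 41 reads in WT libraries, Tpsb2, a tryptase, had 9 reads in KO replicate 3, and Mcpt1 had 4 reads in WT replicate 3. Prss34, a basophil protease, was the most abundant with 5.17, 0.940 and 30.8 FPKM in KO and 0.804, 2.30 and 5.10 FPKM in WT libraries. As for Mcpt8, KO replicate 3 was the highest library and WT replicate 3 the highest of the WT libraries. Cyp11a1, a steroid-producing enzyme, had 0.331, 0.301 and 4.66 FPKM in KO and 0.0509, 0.447 and 1.45 FPKM in WT libraries. Gata1, a factor of red cells, platelets, mast cells and basophils, had 2.29, 0.938 and 4.32 FPKM in KO and 2.43, 2.003 and 2.76 FPKM in WT libraries, and its groups overlapped. Of the 15, 8 were highest in KO replicate 3 and 3 in WT replicate 3, against 20.8% and 13.8% of all genes detected. None of 8 tested was called, against 0.0395% of all genes tested. At an unadjusted limma p under 0.05 there were 0, against 11.5% of all genes tested higher and 10.2% lower in KO.

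**Figure D3:**
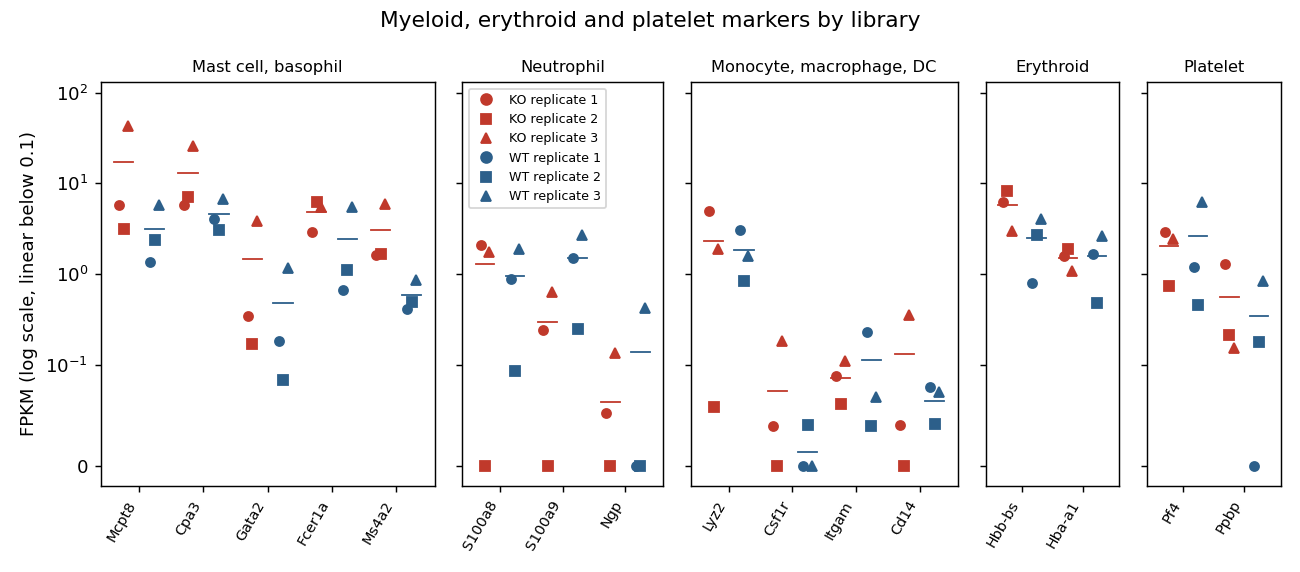
FPKM of the mast cell and basophil, neutrophil, monocyte, red cell and platelet members (y axis, log scale, linear below 0.1) in KO (red) and WT (blue) libraries; lines are group means, and marker shapes give the replicate number. Mcpt8 reaches 43.3 FPKM in KO replicate 3, against 1.35 to 5.82 FPKM in WT libraries, and S100a8, S100a9 and Ngp have no read in KO replicate 2.

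Neutrophil RNA was sparse and uneven within both groups. S100a8 and S100a9 encode the calprotectin subunits, and Ngp encodes a granule protein. S100a8 had 23, 0 and 22 reads in KO and 10, 1 and 23 reads in WT libraries. S100a9 had 2, 0 and 6 reads in KO and 13, 2 and 25 reads in WT libraries. Ngp had 1, 0 and 3 reads in KO and 0, 0 and 9 reads in WT libraries. KO replicate 2 thus had no read of any of the 3 genes, which for S100a8 allows up to 0.329 FPKM, and WT replicate 2 had 3 in all. WT replicate 3 was the highest library for S100a9 and Ngp. The log2 fold changes of S100a8 and S100a9 were 0.20 ± 0.76 and -1.18 ± 0.59 (SE, n = 3 each), with limma adjusted p of 0.902 and 0.292.

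In the wider neutrophil list of 14 genes, genes of granule enzymes made by immature granulocytes led. Mpo, myeloperoxidase, had 1.35, 0.0668 and 5.65 FPKM in KO and 0.339, 0.342 and 1.26 FPKM in WT libraries. Prtn3, proteinase 3, had 0.880, 0.176 and 4.67 FPKM in KO and 0.212, 0.263 and 0.723 FPKM in WT libraries. Elane, neutrophil elastase, had 1.29, 0.0774 and 2.20 FPKM in KO and 0.186, 0.662 and 0.0579 FPKM in WT libraries. All 3 were highest in KO replicate 3. Of the genes of more mature neutrophils, Ly6g and Retnlg had no read in any library, whereas the chemokine receptor gene Cxcr2 had 9 reads and the growth factor receptor gene Csf3r had 6 reads in KO replicate 3, and Ltf, lactoferrin, had 8 reads in WT replicate 3. None of the 3 tested genes was called, against 0.0395% of all genes tested. At an unadjusted limma p under 0.05 there were 0, against 11.5% of all genes tested higher and 10.2% lower in KO.

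Among monocyte, macrophage and dendritic cell genes, Lyz2 was the highest. Lyz2, the lysozyme of myeloid cells, had 4.92, 0.0579 and 1.89 FPKM in KO libraries, against 3.06, 0.841 and 1.60 FPKM in WT libraries. Replicate 1 was the highest and replicate 2 the lowest of each group, and KO replicate 2 had 1 read. Its log2 fold change was -0.16 ± 0.81 (SE, n = 3 each) with a limma adjusted p of 0.927. Csf1r, the receptor for macrophage growth factor, had 3, 0 and 16 reads in KO and 0, 3 and 0 reads in WT libraries. Cd14, the lipopolysaccharide coreceptor, had 1, 0 and 10 reads in KO and 2, 1 and 2 reads in WT libraries. Both had most of their reads in KO replicate 3.

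Itgam, the integrin chain CD11b, had 7, 4 and 10 reads in KO and 19, 3 and 6 reads in WT libraries, and the groups overlapped. Of its 100-base windows, 71.0% also occur in the overlapping gene Gm49368, so reads of Itgam may have been lost to that gene and its level is uncertain. In the wider list of 20 genes, the most abundant were Cd74, the invariant chain of class II antigen presentation, and the class II genes H2-Aa and H2-Ab1, all of which B cells also express. Cd74 had 8.97, 4.76 and 73.6 FPKM in KO and 11.3, 7.99 and 33.6 FPKM in WT libraries. H2-Aa had 1.73, 1.55 and 15.6 FPKM in KO and 2.28, 1.22 and 11.6 FPKM in WT libraries, and H2-Ab1 had 2.17, 2.19 and 15.2 FPKM in KO and 4.25, 4.50 and 11.2 FPKM in WT libraries. Each was highest in KO replicate 3 and next in WT replicate 3. Of macrophage genes, C1qa and C1qc had no read in any library and C1qb had 2 reads in KO replicate 3, while Adgre1, which encodes F4/80, had 8, 0 and 17 reads in KO and 2, 1 and 1 reads in WT libraries. Siglech of plasmacytoid dendritic cells had no read in any library. None of 5 tested genes was called. At an unadjusted limma p under 0.05, 0 were higher and 1 lower in KO, against 11.5% and 10.2% of all genes tested. The lower gene was Cd68, with 1.57, 1.39 and 1.98 FPKM in KO and 2.62, 3.26 and 3.44 FPKM in WT libraries. Its groups did not overlap, and its log2 fold change was -0.75. The group mean of Adgre1 was instead higher in KO, with overlapping groups.

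The red cell genes were lowest in replicate 3 among the KO libraries and highest in it among the WT libraries. Hbb-bs, an adult beta globin, had 6.20, 8.14 and 2.96 FPKM in KO libraries, against 0.795, 2.71 and 4.08 FPKM in WT libraries. KO replicates 1 and 2 were the highest libraries, while KO replicate 3 lay within the WT range. Hba-a1, an alpha globin, had 1.56, 1.88 and 1.09 FPKM in KO and 1.65, 0.481 and 2.59 FPKM in WT libraries, with overlapping groups. Hbb-bs stood at 3.96, 4.33 and 2.71 times Hba-a1 in KO libraries and at 0.481, 5.64 and 1.57 times in WT libraries. Of their 100-base windows, 62.6% of Hbb-bs occur in Hbb-bt and 56.5% of Hba-a1 in Hba-a2, so reads could be split between copies and both levels are uncertain. The log2 fold changes were 1.13 ± 0.53 for Hbb-bs and 0.09 ± 0.43 for Hba-a1 (SE, n = 3 each), with limma adjusted p of 0.263 and 0.925, and the second turned to -0.12 at equal summed FPKM. None of the 7 further red cell genes in the table reached the level needed for the test: the most abundant, the factor Klf1, had 0.548 to 0.581 FPKM in KO and 0.0426 to 0.521 FPKM in WT libraries, Epor, the erythropoietin receptor, 0.268 to 0.607 and 0.0982 to 0.401 FPKM, and Hbb-bt 0.271 to 0.325 and 0 to 0.371 FPKM.

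Both platelet members overlapped between the genotypes. Pf4, platelet factor 4, had 2.91, 0.740 and 2.46 FPKM in KO libraries, against 1.19, 0.452 and 6.16 FPKM in WT libraries. Ppbp, a chemokine stored in the same granules, had 22, 3 and 3 reads in KO and 0, 3 and 16 reads in WT libraries. WT replicate 3 was the highest library for Pf4 but KO replicate 1 for Ppbp. The log2 fold change of Pf4 was 0.08 ± 0.74 (SE, n = 3 each) with a limma adjusted p of 0.964, and -0.093 at equal summed FPKM. Of 10 further platelet genes, Itga2b, an integrin chain, had 1.29, 0.168 and 1.92 FPKM in KO and 0.336, 0.454 and 1.83 FPKM in WT libraries. Gp1ba, of the von Willebrand factor receptor, had 0.140 to 0.351 FPKM in KO and 0.440 to 0.910 FPKM in WT libraries, so that every KO library lay below every WT library at 5 to 15 reads in KO and 21 to 38 in WT libraries, and it was below the level needed for the test. Gp9 had 0 to 0.216 FPKM in KO and 0 to 0.905 FPKM in WT libraries. Itga2b was the 1 gene of these that was tested, and it was not called.

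Over all 29 members, replicate 3 stood out in both groups. The highest library was KO replicate 3 for 11 members, WT replicate 3 for 9, KO replicate 1 for 3 and each of the other 3 libraries for 2. Of the genes tested, 22.7% were highest in KO replicate 3 and 11.5% in WT replicate 3. For 14 members, or 48.3%, replicate 3 was the highest library of both groups, whereas this held for 23.0% of the genes tested and 16.9% of the genes detected. The 14 included Trdc, Tcrg-C1, Tcrg-C2, Mcpt8, Cpa3, Gata2, Ms4a2, Cd79a and Ms4a1. KO replicate 3 is also the library with Ddx3y reads and no Xist read, but WT replicate 3 is not, with 6918 Xist reads and 0 Ddx3y reads. The part of this difference in the levels was not tested.

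**Figure D4:**
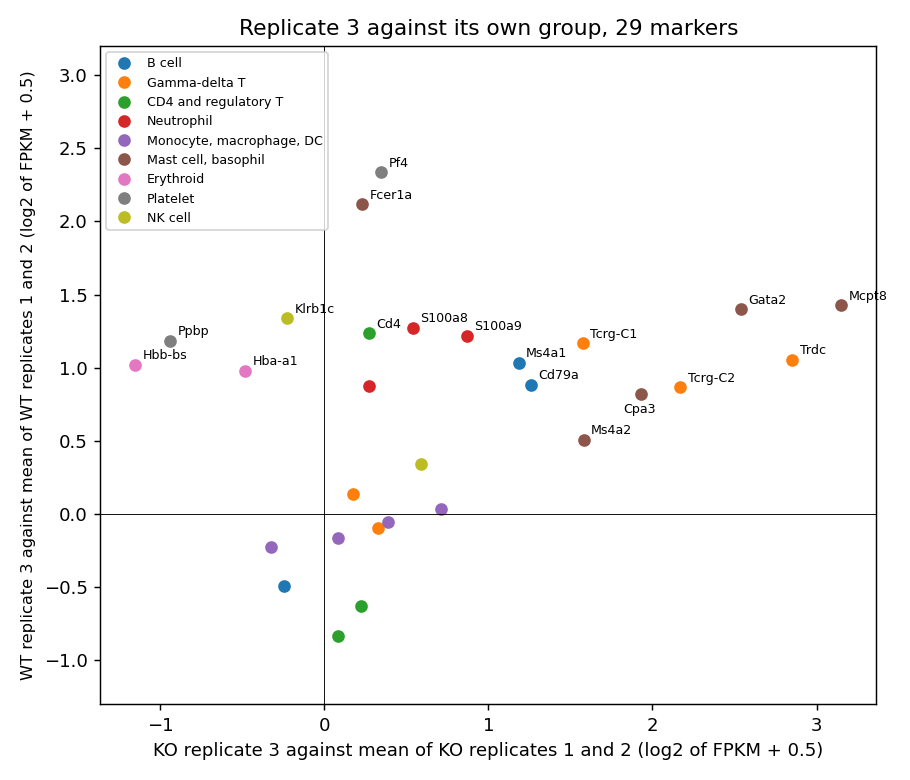
Each point is 1 of the 29 members, coloured by lineage: x axis, KO replicate 3 against the mean of KO replicates 1 and 2; y axis, WT replicate 3 against the mean of WT replicates 1 and 2, both as differences of log2(FPKM + 0.5). Mcpt8 (3.15 and 1.43) and Trdc (2.85 and 1.05) lie high on both axes, whereas Hbb-bs and Ppbp are lower in KO replicate 3 and higher in WT replicate 3.

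Between genotypes, no member was called. A mean of 0.5 FPKM over the 6 libraries was required for the test, which 19 members reached. The 10 below it were Ms4a1, Il17a, Foxp3, Ngp, Csf1r, Itgam, Cd14, Ppbp, Ncr1 and Klrb1c. Of the 19, 0 had an adjusted p under 0.05 in limma, against 0.0395% of all 12654 genes tested (5 genes), and limma-voom on rebuilt reads called 0 members and 0.0079% of all genes. At an unadjusted p under 0.05 there were 4 members, Ms4a2, Cd163l1, Cd4 and Cd79b, while 21.8% of all genes tested were under it. The same 4 genes were those whose groups did not overlap, against 27.8% of all genes tested. Shares of the members near those of all genes say nothing particular about the members. Since a gene could reach the mean through 1 high library or 1 group, as Cd4, S100a9 and Gata2 did, counts over the 19 are a description. The median log2 fold change of the 19 was 0.20, with 13 above 0 and 6 below, against a median of 0.03 over all genes tested, of which 52.4% lay above 0. Scaling the libraries to equal summed FPKM moved that median of all genes to -0.20. With no filter on low values, all 29 were tested, 0 were called, against 0.0125% of all genes, and 4 had an unadjusted p under 0.05, against 13.4% of all genes.

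Leaving out KO replicate 3 raised the number of called genes in the whole table. Without it, 13.7% of all genes tested were called (1733 genes) and 0 of the 19 members. Without both replicates 3, 14.7% were called (1863 genes) and 1 of the 19 members, Ms4a2. Members that passed in neither case included Cd79a, with log2 fold changes of -1.06 and -0.76, and Hbb-bs, with 1.51 and 1.90, without KO replicate 3 and without both replicates 3. Their limma adjusted p were 0.0913 and 0.0920 for Cd79a, and 0.103 and 0.0638 for Hbb-bs.

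**Figure D5:**
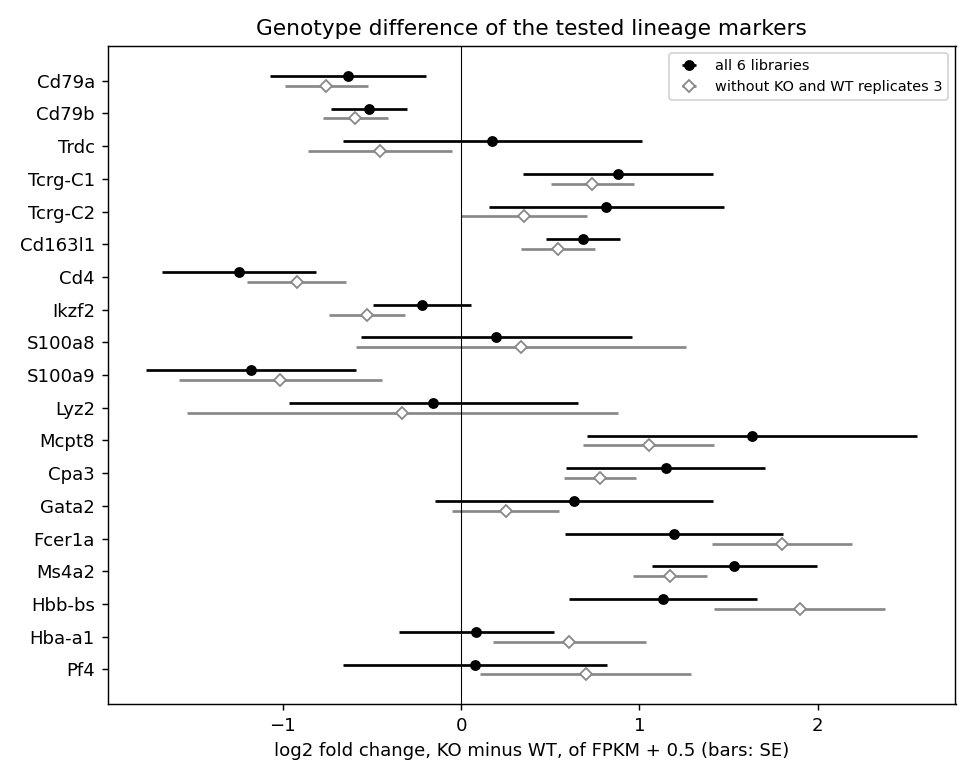
Log2 fold change (x axis, KO minus WT, of FPKM + 0.5) of the 19 tested members, with SE bars, over all 6 libraries (black) and without both replicates numbered 3 (grey). Ms4a2 lies at 1.53 and 1.17 and Cd4 at -1.25 and -0.92, whereas Trdc lies at 0.18 over all libraries and at -0.46 without both replicates 3.

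The level of the CD8 genes bears on any ratio of the members to them. Of 12 CD8 T cell genes, all tested, 0 were called, 2 had a log2 fold change above 0 and 10 below, with a median of -0.25, and at an unadjusted p under 0.05, 0 were higher and 4 lower. Of all genes tested, 11.5% were higher and 10.2% lower at that p, with a median of 0.03. Cd8a had a log2 fold change of -0.62 with a limma adjusted p of 0.149. Set against Cd8a in the same library, the 29 members together summed to 56.0%, 75.6% and 160.7% of its FPKM in KO libraries and to 37.2%, 30.4% and 48.4% in WT libraries. The mast cell and basophil genes came to 12.1%, 16.8% and 58.2% in KO and 3.65%, 3.62% and 9.13% in WT libraries, and the gamma-delta genes to 15.1%, 32.8% and 81.1% in KO and 10.8%, 10.6% and 18.5% in WT libraries. On this scale the mast cell and basophil sums of the groups did not overlap, whereas the B cell genes, at 9.59% to 12.2% in KO and 8.30% to 13.7% in WT libraries, did. As deposited it was the reverse. The mast cell and basophil sum of WT replicate 3, 20.0 FPKM, lay above the 16.4 and 18.2 FPKM of KO replicates 1 and 2. The B cell sums did not overlap. Cd8a itself was lower in every KO than in every WT library. Both statements thus depend on the denominator, and no other was used for these sums. The percentages are ratios of summed FPKM, not shares of cells.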

How the data were processed

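RNA was sequenced from 6 samples, 3 KO and 3 WT by the genotype label, with stranded mRNA libraries per the labels' protocols. The submitters' processing notes name build mm10 and the tools DESeq2, featureCounts 1.5.0-p3, HISAT2 2.0.5 and Trim Galore, without their role or order. Per the file headers, the authors deposited an FPKM value for each gene and sample beside the gene's length in bases. How the counting treated strand and multiply matching reads, and which annotation it used, is not given in the sources used here. Levels are therefore uncertain for genes that overlap another on the opposite strand (among the members Ms4a1, Trdc, Foxp3, Ikzf2 and Csf1r) and for genes with near-identical copies.

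From the deposited values, whole reads were rebuilt as multiples of 1 step of FPKM times gene length, within 0.05 of a whole number for at least 99.99% of values. Coordinates are those of GENCODE M21 (mm10), counted from 1; 54409 of 54532 identifiers matched. Log2(FPKM + 0.5) was tested for the 12654 genes that averaged at least 0.5 FPKM, with limma 3.58.1 in R 4.3.3 (mean-variance trend, genotype as the only term, 2-sided), with Benjamini-Hochberg adjustment over all of them and a threshold of 0.05. Exact permutation tests over samples were 2-sided. The limma step was tested on simulated data. No groups or samples were left out. Shared sequence was counted as 100-base windows of a member's transcript found in another gene, and promoter windows were taken for the 20 members with a RefSeq entry. Other steps used matplotlib 3.10.9, scipy 1.17.1, pandas 2.3.3 and Python 3.11.15.

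The members, the wider lists and the CD8 list were chosen with earlier results of these data known. All 29 members are named, with the 3 genes of highest mean FPKM of each wider list, Cd8a, Cd8b1, Cd3e, Ptpmt1, Xist and Ddx3y; other genes were named after their values were seen. Alternatives covered the pseudocount, the filter, the scaling, leaving out each sample in turn, a replicate block, limma-voom on rebuilt reads, and both replicates numbered 3 left out.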

Additional observations from a re-analysis of the deposited data

How the results depend on the processing

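The number of genes called over the whole table, 5, was 3 with a pseudocount of 1, 3 with no filter on low values, 1 with limma-voom on rebuilt reads and 1863 without both replicates 3; leaving out each sample in turn gave 2 to 1733, the highest without KO replicate 3. With a replicate block it was 12. Same-numbered KO and WT samples correlated at 0.132, 0.0665 and 0.331 in their deviations from the group means, and WT replicate 1 correlated best with KO replicate 2 (0.267), so the numbers were not taken to pair the samples. Of 263 values of single members under the alternatives, 18 had the opposite sign and 1 gained a call (Ms4a2); 13 members kept their sign and 6 did not. Equal summed FPKM reversed Trdc (-0.051), Hba-a1 (-0.12) and Pf4 (-0.093), and leaving out both replicates 3 reversed Trdc (-0.46). Leaving out each sample in turn gave log2 fold changes of -0.81 to 0.94 for Trdc, -0.34 to 0.96 for S100a8, -0.90 to 0.74 for Lyz2, -0.22 to 1.14 for Gata2, -0.38 to 0.45 for Hba-a1 and -0.53 to 0.87 for Pf4. A filter at a mean FPKM of 1 left 3 members untested (Cd4, Gata2 and S100a9). The difference of the summed B cell genes was -9.73 FPKM at equal summed FPKM, against -6.76 FPKM as deposited, and that of the red cell genes 6.07 FPKM without both replicates 3, against 3.17 FPKM. The cause of these changes was not tested. Members with few reads, such as Il17a, Csf1r, Ngp and Ncr1, are limited by depth.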
